A study of Homo sapiens with 10 samples.

Results

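ISG15 and the enzymes that attach it to proteins and remove it again were followed in HCT-116 cells, a human colorectal carcinoma line, after doxorubicin (DOX). The members were taken by gene symbol and numbered 6 of the 32738 genes counted, namely ISG15, UBA7, UBE2L6, HERC5, HERC6 and USP18. The DOX cells were wild-type HCT-116 cells given 200 nM DOX for 24 h and, per the methods of the study, left for 6 days in medium without the drug, and the untreated cells were the same line without DOX. Droplet 3′ single-cell libraries counted unique molecular identifiers (UMIs, tags that mark single captured mRNA molecules), with 2 libraries per group. The 6 bulk mRNA samples of the series were not analysed here.

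The members were compared in barcodes with at least 20000 UMIs and less than 8% of them from mitochondrially encoded genes, called deep cells here. They numbered 1307 and 1080 in the DOX libraries and 3572 and 2137 in the untreated libraries, with medians of 72676 and 84830 UMIs per cell in DOX and 72792 and 81168 in untreated cells. The epithelial origin of the line showed in EPCAM, the claudins, CDH1 and the keratins of a list of 7, all at 1 or more UMI per 1000000 UMIs (CPM) in every library, summing to 6504 and 6162 CPM in DOX and 4148 and 3748 CPM in untreated cells. Markers of blood, stromal, endothelial and neural cells, 12 genes, summed to 12.1 and 13.0 CPM in DOX and 6.80 and 7.09 CPM in untreated cells, with the leukocyte antigen PTPRC at 0.37 and 0.14 CPM in DOX and at 0.01 and 0.03 CPM in untreated cells. The part of those few UMIs in the results was not tested. Libraries shared at most 2 deep barcodes with each other.

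ISG15 is a small interferon-induced protein built of ubiquitin-like folds. Like ubiquitin it is joined to lysines of other proteins by a chain of enzymes: UBA7 activates it, UBE2L6 carries it, and HERC5 transfers it to proteins as they are made. HERC6, the closest relative of HERC5, is the main ISG15 ligase of the mouse, and USP18 cuts ISG15 off again. USP18 also sits with STAT2 on the interferon receptor chain IFNAR2 and damps its signal. All 6 genes are known as interferon-stimulated genes, whose promoters are bound through the interferon-stimulated response element by the transcription factor complex ISGF3. The study asked about its unphosphorylated form (U-ISGF3), which keeps a subset of these genes on after the signal has faded.

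In hg19 with GENCODE v44 gene models, ISG15 lies on the plus strand of chromosome 1 (chr1:936518-949920), UBA7 on the minus strand of chromosome 3 (chr3:49842642-49851386), UBE2L6 on the minus strand of chromosome 11 (chr11:57319129-57335757) and USP18 on the plus strand of chromosome 22 (chr22:18632885-18660164). HERC6 (chr4:89299891-89364249) and HERC5 (chr4:89378270-89427314) are neighbours on the plus strand of chromosome 4, with 14020 bases between them. On their own strand HERC5 overlaps AC083829.1 and UBA7 overlaps MIR5193, so reads in the shared stretches are uncertain. USP18 has a partial copy, USP41, on the same chromosome. Of the 31-base words in the longest USP18 transcript 5.3% also occurred in USP41 transcripts, and of those in its last 500 bases, where 3′ libraries count, 0.0% did.

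Promoter windows of 250 bases before to 50 bases after the start site, from RefSeq on GRCh38.p14, were at hand for 4 of the 6 members, with none for UBA7 and USP18. They are shown because the members moved together after DOX. The response element was searched as GAAANNGAAA on both strands, overlaps included, and its matches are in capitals. ISG15 held 2 matches that share bases, and HERC5 held 3, of which 2 share bases, while HERC6 held 0, as did both windows of UBE2L6. Of all 35116 windows of that length 3.57% held a match. A match is a run of letters and not a bound site, and a window without one says only that these letters are not in it. The first match began 113 bases before the start site of ISG15 and 125 bases before that of HERC5. The 3 windows below belong to ISG15, HERC5 and HERC6.
ISG15 promoter, chr1:1013247-1013546, plus strand: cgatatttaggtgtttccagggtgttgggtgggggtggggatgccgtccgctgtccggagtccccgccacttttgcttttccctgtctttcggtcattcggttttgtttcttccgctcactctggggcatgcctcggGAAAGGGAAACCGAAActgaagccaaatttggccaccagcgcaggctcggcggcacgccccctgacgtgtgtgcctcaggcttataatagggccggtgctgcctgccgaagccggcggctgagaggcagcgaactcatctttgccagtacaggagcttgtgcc
HERC5 promoter, chr4:88456869-88457168, plus strand: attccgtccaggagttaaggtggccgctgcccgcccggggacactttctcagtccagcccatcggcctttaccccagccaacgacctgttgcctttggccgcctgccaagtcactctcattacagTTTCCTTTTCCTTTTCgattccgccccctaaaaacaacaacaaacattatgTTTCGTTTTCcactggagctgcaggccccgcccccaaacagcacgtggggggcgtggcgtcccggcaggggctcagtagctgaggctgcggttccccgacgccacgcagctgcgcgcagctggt
HERC6 promoter, chr4:88378602-88378901, plus strand: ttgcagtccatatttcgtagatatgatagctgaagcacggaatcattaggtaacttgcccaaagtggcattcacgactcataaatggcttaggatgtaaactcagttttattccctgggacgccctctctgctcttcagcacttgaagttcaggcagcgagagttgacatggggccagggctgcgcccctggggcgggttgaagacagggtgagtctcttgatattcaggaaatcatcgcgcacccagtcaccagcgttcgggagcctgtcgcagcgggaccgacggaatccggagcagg

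The first comparison asked whether DOX changed the system in deep cells. After DOX, 5 of the 6 members rose, while UBA7 stayed near the limit of detection. UMIs were summed per library and tested with edgeR's quasi-likelihood test, in which 28.2% of the 21563 genes tested rose and 26.4% fell at an adjusted p under 0.05. The median log2 change over all genes was 0.05.

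ISG15, the modifier itself, had 686 and 690 CPM in the DOX libraries, against 131 and 122 CPM in the untreated libraries. The groups lay far apart, 5.45 times in their means, and the fitted log2 change was 2.28 ± 0.087 (SE, adjusted p = 5.43e-07). A larger log2 change was seen in 3.61% of all genes tested. Nearly every deep cell held ISG15 mRNA, with a UMI in 99.5% and 99.7% of DOX cells and in 98.5% and 99.3% of untreated cells.

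UBA7, the activating enzyme, was at 0.17 and 0.14 CPM in DOX cells and at 0.08 and 0.09 CPM in untreated cells. These values rest on 18 and 14 UMIs in DOX libraries and 24 and 18 UMIs in untreated libraries, and their counting intervals overlapped between the groups. The log2 change of 0.68 ± 0.35 did not pass the test (adjusted p = 0.137). UBA7 passed it where cells of any mitochondrial share were kept (log2 change 1.17, adjusted p = 0.00814). Only 1.38% and 1.20% of DOX cells and 0.67% and 0.84% of untreated cells held a UBA7 UMI, which at this depth does not say that the others lack its mRNA.

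UBE2L6, the conjugating enzyme, reached 19.5 and 18.5 CPM in DOX cells, against 6.51 and 6.53 CPM in untreated cells (log2 change 1.37 ± 0.069, adjusted p = 2.34e-06). HERC5, the ligase, reached 32.3 and 30.2 CPM in DOX cells, against 9.96 and 11.4 CPM in untreated cells (log2 change 1.39 ± 0.068, adjusted p = 1.97e-06). HERC6 reached 14.4 and 14.6 CPM in DOX cells, against 2.96 and 3.66 CPM in untreated cells (log2 change 1.97 ± 0.083, adjusted p = 8.45e-07). Of HERC5 and HERC6, HERC6 was thus the one with the larger ratio of means, 4.38 against 2.93 for HERC5, and the one with fewer UMIs.

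USP18, the protease, reached 16.8 and 16.5 CPM in DOX cells, against 4.92 and 5.15 CPM in untreated cells (log2 change 1.55 ± 0.065, adjusted p = 8.21e-07). The DOX and untreated libraries did not overlap for USP18 or for any of the other 4 members that rose. USP41, the partial copy of USP18, was counted at only 0.13 and 0.18 CPM in DOX cells, and at 0.04 and 0.04 CPM in untreated cells.

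**Figure D1:**
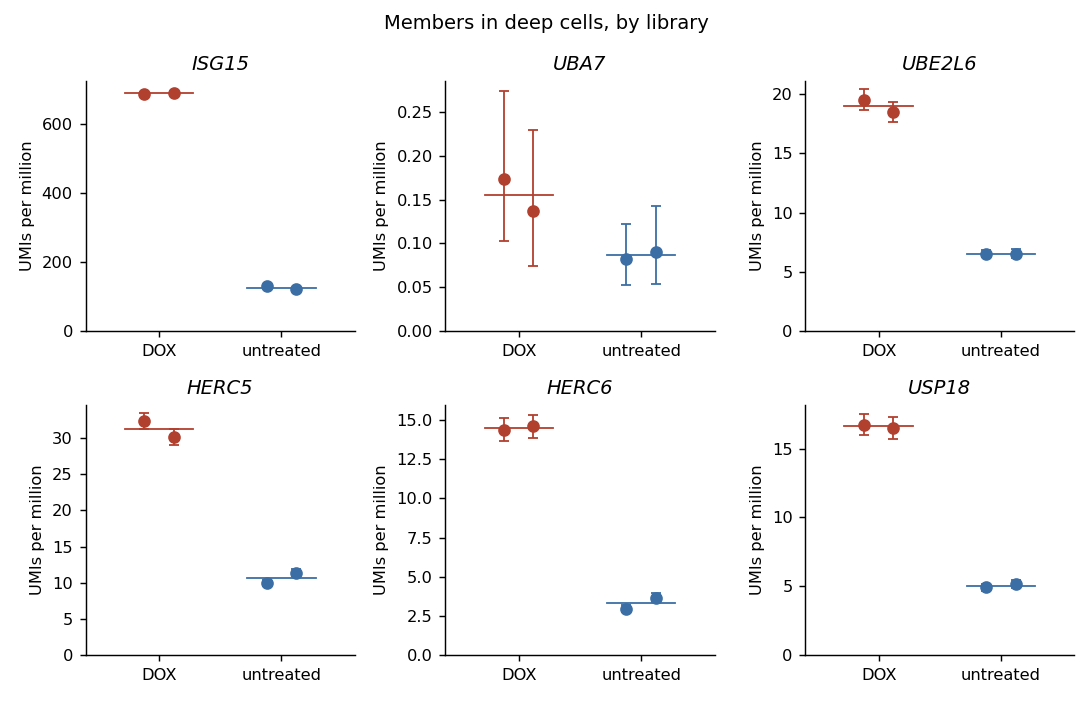
UMIs per 1000000 UMIs (CPM) of each member in deep cells of the DOX libraries (red, left) and the untreated libraries (blue, right). Points are libraries with 95% Poisson intervals of the count, lines are group means, and each axis starts at 0. The DOX points lie above the untreated points in all 6 panels, for UBA7 with overlapping intervals.

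By ratio of means the members ranked ISG15 (5.45), HERC6 (4.38), USP18 (3.30), HERC5 (2.93) and UBE2L6 (2.91), with UBA7 at 1.80. HERC5 and UBE2L6, neighbours in that order, had log2 changes within 1 SE of each other. The rise of the 5 members kept its direction and passed the test in each of 16 other settings, which included DESeq2, scaling by total UMIs, other limits on UMIs and mitochondrial share, equal depth per cell and leaving out any library. In these the log2 change ran from 2.01 to 2.45 for ISG15, from 1.16 to 1.54 for UBE2L6, from 1.31 to 1.59 for HERC5, from 1.85 to 2.14 for HERC6 and from 1.33 to 1.72 for USP18.

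Genes around the system moved in part. Of 5 further ligases and partners of USP18, 2 rose and 2 fell (median log2 change 0.00, against 0.05 over all genes). TRIM25, another ISG15 ligase in human cells, had 62.3 and 62.4 CPM in DOX cells and 36.4 and 40.1 CPM in untreated cells (log2 change 0.54 ± 0.056, adjusted p = 8.34e-05). STAT2, which holds USP18 at the receptor, rose too, with 14.8 and 14.6 CPM in DOX cells and 6.54 and 7.57 CPM in untreated cells. SKP2, part of the ubiquitin ligase that degrades USP18 and a gene of proliferating cells, fell to 20.0 and 21.3 CPM in DOX cells, against 34.2 and 33.9 CPM in untreated cells, and IFNAR2 fell by 0.26 on the log2 scale. ARIH1, another ligase reported for ISG15, had a log2 change of 0.00 ± 0.060.

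Upstream of the members, in type I interferon signalling, IRF9 rose. It had 4.06 and 5.28 CPM in DOX cells, against 0.86 and 1.04 CPM in untreated cells (log2 change 2.14 ± 0.14, adjusted p = 1.06e-05). The receptor chain IFNAR1 and the kinase JAK1 had log2 changes of -0.14 and 0.08 that did not pass. Of 9 interferon genes, IFNE alone had enough UMIs to be tested in the sums, and it rose, with 0.33 and 0.23 CPM in DOX cells and 0.11 and 0.12 CPM in untreated cells (adjusted p = 0.0154). ISG15, HERC5 and HERC6 stand on the list of U-ISGF3-induced genes that the study used. ISG15 is there under its older symbol G1P2, for which the study reported no expression. The 26 genes that the study detected thus include HERC5 and HERC6 but not ISG15, and differ from the other genes counted here. Of the 26 other genes on it 25 could be tested, 24 rose and 0 fell (median log2 change 3.65). IFI27 (6.14 ± 0.091), BST2 (4.59 ± 0.094) and OAS1 (7.50 ± 0.16 on the log2 scale) had the smallest p there. That list was the study's own theme for these samples, so its direction is not independent evidence.

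Few genes of the other ubiquitin-like systems rose. Among 19 other ubiquitin-like modifiers (ubiquitin genes, SUMO, NEDD8, URM1 and the autophagy modifiers) 18 could be tested, of which 2 rose and 8 fell (median log2 change -0.20). The 2 that rose were the autophagy modifiers GABARAPL1 (0.66 ± 0.072) and MAP1LC3B (0.49 ± 0.074). SUMO3 fell to 26.7 and 27.2 CPM in DOX cells, against 36.2 and 35.2 CPM in untreated cells, and URM1 fell to 35.3 and 36.7 CPM, against 44.37 and 43.97 CPM. Of 17 enzymes that activate or conjugate those other modifiers 0 rose and 12 fell (median log2 change -0.46). NAE1, a subunit of the NEDD8-activating enzyme, fell by 0.77, UBA2 of the SUMO-activating enzyme by 0.61 and the autophagy enzyme ATG3 by 0.52 on the log2 scale. UBE2L3, the nearest relative of UBE2L6 and a ubiquitin carrier, fell by 0.46, while UBE2L6 rose.

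Of the 4 other HERC ligases 0 rose and 1 fell. HERC2, a giant ligase of DNA repair, had 86.4 and 87.7 CPM in DOX cells and 91.2 and 106 CPM in untreated cells (log2 change -0.34 ± 0.064, adjusted p = 0.00188), while HERC1, HERC3 and HERC4 did not pass. Of 16 genes listed as other modifier proteases 10 fell, led by USP1 (-0.68 ± 0.058), USP7 (-0.57 ± 0.060) and SENP1 (-0.55 ± 0.060). The 1 that rose was USP41, which the gene models class as a pseudogene. Under scaling by total UMIs the median over all genes became 0.21 and the split of calls 8472 up to 3259 down, against 6077 up to 5695 down.

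Of 13 proteins reported elsewhere as carrying ISG15, 6 had mRNA that rose and 3 that fell. Among those that rose were DDX58, the sensor RIG-I, with 57.8 and 57.9 CPM in DOX cells and 9.47 and 9.94 CPM in untreated cells, and IFIT1, an RNA-binding antiviral protein, with 45.1 and 44.3 CPM in DOX cells and 1.14 and 0.88 CPM in untreated cells. PCNA, the replication clamp, fell by 0.74 and UBE2N by 0.53 on the log2 scale. S phase and G2/M genes fell throughout, 40 of 40 and 54 of 54 tested. Among epithelial markers 6 of 7 rose (CDH1 by 1.12, CLDN4 by 0.95), and of 10 markers of other cell types that could be tested 6 rose (LYZ, NCAM1 and PTPRC with the smallest p). The part of these shifts in the members' rise was not tested, and fewer cells of a kind and less mRNA per cell cannot be told apart in the sums.

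The next question was how the members were spread over cells. Each deep cell was thinned at random to 20000 UMIs, so that depth was equal, and variation is given as the Fano factor, the variance over the mean, which is 1 for pure counting noise. ISG15 had a median of 10 UMIs per cell in both DOX libraries and of 2 in both untreated libraries. In DOX the middle 50% of cells ran from 5 to 18 UMIs in both libraries, and the 10% of cells with most ISG15 held 33.9% and 30.7% of all ISG15 UMIs. More ISG15 than in any untreated cell, that is over 21 UMIs, was found in 18.0% and 18.1% of DOX cells. In turn 10.6% and 10.1% of DOX cells were at or under the untreated median of 2 UMIs, against 57.4% and 60.3% of untreated cells.

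**Figure D2:**
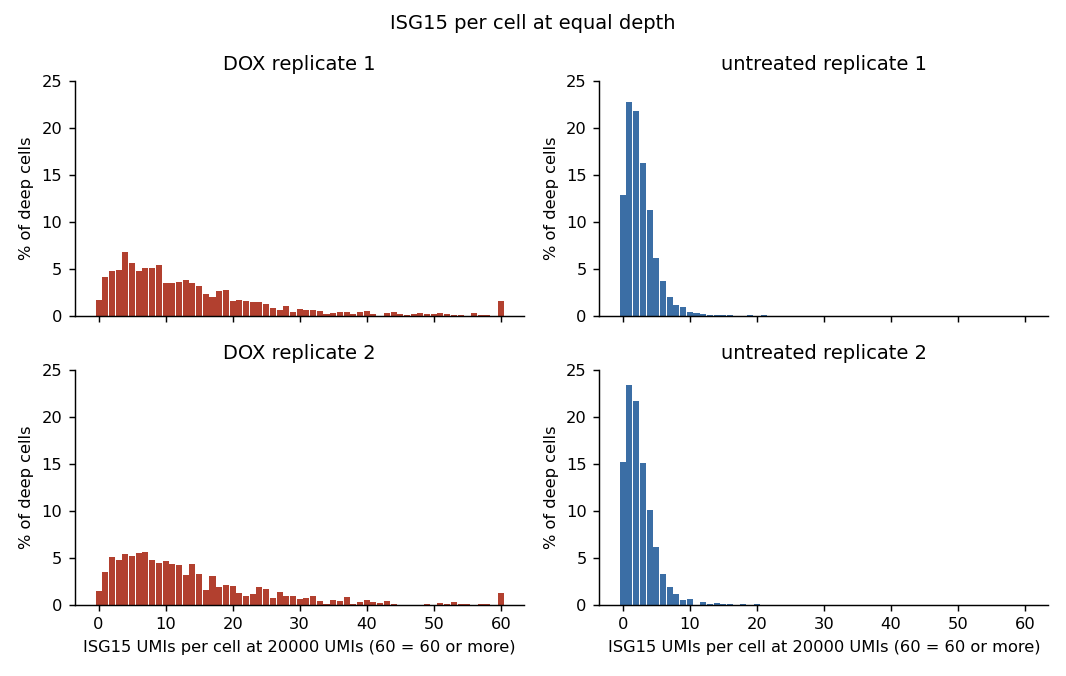
Share of deep cells (vertical axis, %) by ISG15 UMIs per cell after thinning to 20000 UMIs (horizontal axis), DOX libraries on the left in red and untreated libraries on the right in blue. The last bar holds all cells with 60 or more. DOX cells spread from 0 to over 60 UMIs around a median of 10, whereas untreated cells pile up around a median of 2 and end at 21.

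The Fano factor of ISG15 was 23.39 and 12.03 in DOX libraries and 1.87 and 2.02 in untreated libraries. A single cell of DOX replicate 1, with 460 ISG15 UMIs of its 20000, raised the value there, and without it the factor was 12.9, close to that of replicate 2. HERC5 came next, with 4.44 and 3.48 in DOX and 1.16 and 1.11 in untreated libraries (3.33 and 2.85 in DOX without the top cell of each library). USP18 had 1.67 and 1.49 in DOX and 1.04 and 1.04 in untreated libraries, UBE2L6 1.32 and 1.39 in DOX and 1.04 and 1.02 in untreated libraries, and HERC6 1.36 and 1.27 in DOX and 1.09 and 1.02 in untreated libraries. All 5 were above 1 in both DOX libraries and higher there than in either untreated library, but the factor grows with the mean, which was also higher in DOX. Variance beyond counting noise over the squared mean, which does not, was 5.30 and 3.91 for HERC5 in DOX and 0.752 and 0.518 in untreated libraries, and 1.59 and 0.813 for ISG15 in DOX and 0.335 and 0.412 in untreated libraries. UBE2L6 and USP18 were likewise higher in both DOX libraries on this measure. HERC6 was not, with 1.37 and 0.940 in DOX and 1.597 and 0.319 in untreated libraries. The ISG15 and HERC5 values of this measure include the top cells, among them the cell with 460 ISG15 UMIs. They were not computed without these cells. With 2 libraries a group this is a description.

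At that equal depth the enzymes were seen in a minority of cells. A HERC5 UMI was found in 36.0% and 35.4% of DOX cells and 17.4% and 18.4% of untreated cells, and a USP18 UMI in 24.6% and 27.6% of DOX cells and 9.71% and 9.36% of untreated cells. For UBE2L6 the shares were 27.8% and 26.2% in DOX and 12.5% and 11.6% in untreated cells, and for HERC6 20.7% and 22.3% in DOX and 5.49% and 6.79% in untreated cells. With all UMIs of a cell counted they were higher, for HERC5 70.1% and 74.5% of DOX cells and 47.6% and 58.0% of untreated cells. Every cell here is of the same line, so no cell type that should lack these genes gives the level that free RNA in the droplets would produce.

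A few cells held far more HERC5 than the rest. The highest held 33 and 23 HERC5 UMIs in the DOX libraries, against 4 and 3 in the untreated ones. The top DOX replicate 2 cell was also its top ISG15 cell, with 148 UMIs. It held 41 UMIs of IFIT1, 30 of IFIT2, 19 of IFIT3 and 34 of OASL, with 0 of USP18 and 0 of UBE2L6. The top DOX replicate 1 cell held 33 UMIs of OASL and 75 of ISG15, with 1 of UBE2L6 and 0 of USP18. At this depth most DOX cells held 0 UMIs of USP18, and most held 0 of UBE2L6.

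Correlations over the deep cells of each library, on UMIs scaled to 10000 per cell and logged, showed 5 members, UBA7 aside, varying together in DOX cells and hardly so in untreated cells. ISG15 and USP18 had r = 0.399 and 0.433 in the DOX libraries, against 0.016 and 0.016 in the untreated ones. ISG15 and UBE2L6 had 0.356 and 0.321 in DOX, against 0.060 and 0.067, and ISG15 and HERC5 had 0.326 and 0.317, against 0.005 and -0.001. ISG15 and HERC6 were the weakest of these, at 0.147 and 0.241 in DOX and 0.009 and 0.021 in untreated cells. These are descriptions over cells that share a library, with 1307 and 1080 DOX cells and 3572 and 2137 untreated cells. Lower counts in untreated cells themselves lower r, and how much of the gap this makes was not tested.

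Among the enzymes other than UBA7 r was highest for HERC5 and USP18 (0.360 and 0.279 in DOX) and for HERC6 and USP18 (0.273 and 0.336), and lowest for UBE2L6 and HERC6 (0.088 and 0.144). In untreated cells no pair of the 5 genes passed 0.078. On thinned counts Pearson r fell, to 0.165 and 0.346 for ISG15 with USP18 in DOX, while ISG15 with HERC5 kept 0.343 and 0.378. By ranks (Spearman) on thinned counts the order was the other way. ISG15 with USP18 then had 0.208 and 0.257 in DOX, and ISG15 with HERC5 had 0.154 and 0.184. UBA7 had Pearson r of -0.016 to 0.071 with the other members in the DOX libraries on log-normalized UMIs, and of -0.021 to 0.097 on thinned counts.

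**Figure D3:**
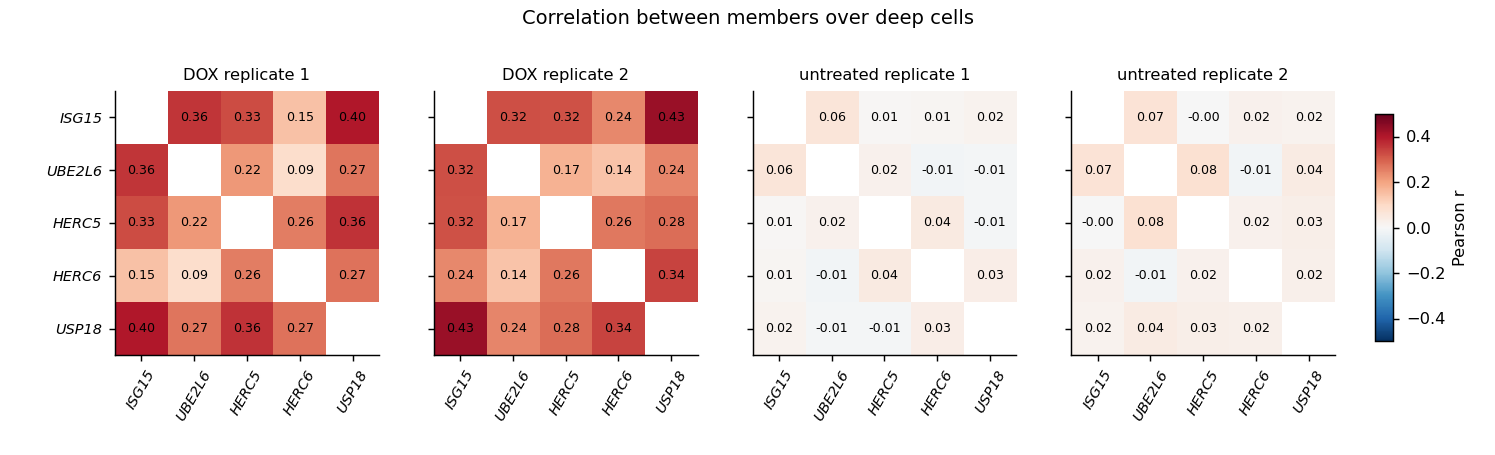
Pearson r between 5 members over deep cells of each library, on log-normalized UMIs, with the colour scale running from -0.5 to 0.5. UBA7 is left out. The panels of the DOX libraries hold values of 0.09 to 0.43, and those of the untreated libraries values of -0.01 to 0.08.

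Over DOX cells ISG15 followed the rest of the U-ISGF3 list. With the summed UMIs of those 26 genes it had r = 0.625 and 0.614 in DOX, against -0.015 and -0.005 in untreated cells. With total UMIs per cell it had -0.074 and 0.027 in DOX and 0.086 and -0.022 in untreated cells. The more of the other 5 members a thinned DOX cell held, the more ISG15 it held. With 0 of them the mean was 10.1 and 9.90 ISG15 UMIs, with 1 of them 12.9 and 11.9, with 2 of them 18.0 and 17.1 and with 3 or more 24.6 and 24.1. In untreated cells the means for 0, 1 and 2 other members lay between 2.45 and 2.67, and with 3 or more they were 3.08 and 2.62, over 12 and 13 cells.

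Of 13276 genes seen in at least 10% of the deep cells of each DOX library, those most like ISG15 by the lower of its DOX correlations were IFI6 (0.703 and 0.718 in DOX, against 0.050 and 0.090 in untreated cells), IFITM3 (0.611 and 0.603), IFIT1 (0.591 and 0.523), B2M (0.515 and 0.558), PSME2 (0.491 and 0.488), IFI27 (0.449 and 0.455), HLA-C (0.446 and 0.536), MYL6 (0.430 and 0.456) and ATPIF1 (0.433 and 0.426). IFI6, IFITM3, IFIT1 and IFI27 are interferon-induced antiviral genes, and B2M, HLA-C and PSME2 serve antigen presentation. MYL6 and ATPIF1, a myosin light chain and a mitochondrial inhibitor, also had 0.213 and 0.224, and 0.185 and 0.216, in untreated cells. USP18 stood at rank 14, UBE2L6 at 96, HERC5 at 104 and HERC6 at 1025.

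The same ranking, run for the other members after the first values had been seen, gave lists that overlapped in part. B2M, IFITM3 and IFI6 were among the first 5 for both ISG15 and UBE2L6, and IFI6 also for USP18. IFIT1 was among them for ISG15, HERC5 and USP18, and IFIH1 for HERC5 and USP18. HERC5 went with OASL (0.529 and 0.601 in DOX), IFIT3 (0.508 and 0.592) and IFIT2 (0.452 and 0.565), all interferon-induced antiviral genes. UBE2L6 went with BST2 (0.422 and 0.423), the virus-tethering membrane protein, and PSMB9 (0.435 and 0.399), a subunit of the immunoproteasome. HERC6 went with DDX60 (0.385 and 0.413) and DDX58 (0.381 and 0.420), helicases of RNA sensing, and with PARP14 (0.374 and 0.377). USP18 went with IFIT1 (0.525 and 0.503) and IFIH1 (0.427 and 0.407), and ISG15 was its number 4.

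For single genes r differed between members. IFIT2 had 0.452 and 0.565 with HERC5 but 0.136 and 0.098 with UBE2L6 and 0.247 and 0.114 with USP18. BST2 had 0.422 and 0.423 with UBE2L6 but 0.167 and 0.094 with HERC5. IFITM3 had 0.611 and 0.603 with ISG15 but 0.036 and 0.146 with HERC6. Each of these orders held in both DOX libraries. In untreated cells OASL with HERC5 had 0.016 and -0.005, BST2 with UBE2L6 0.014 and 0.009, and DDX60 with HERC6 0.079 and 0.066.

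Deep cells of each library were also split by their thinned UMIs of S phase and G2/M genes, none of them a member, and the cells with most of them (435 and 360 in DOX, 1190 and 712 in untreated libraries) were compared with as many cells with fewest, with the library as a block. In DOX these are called cycling and non-cycling cells. They held means of 246 and 246 such UMIs in cycling and 45.5 and 51.4 in non-cycling DOX cells, and all 40 S phase and 54 G2/M genes tested were higher in cycling cells. The untreated split was far narrower, with means of 275 and 278 such UMIs in the cells with most and 185 and 185 in those with fewest. There all 54 G2/M genes were higher, but 0 of 40 S phase genes were higher and 18 were lower, so the untreated groups are named only by their UMIs. In DOX, USP18, HERC6 and HERC5 were higher in cycling cells, UBE2L6 was lower, and ISG15 and UBA7 did not pass. Of 19602 genes tested 32.4% were higher and 29.0% lower in that split.

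USP18 had 21.6 and 20.0 CPM in cycling DOX cells, against 12.6 and 13.1 CPM in non-cycling DOX cells, a log2 change of 0.81 ± 0.094 (adjusted p = 7.60e-05). UBE2L6 went the other way, with 17.7 and 15.2 CPM in cycling DOX cells and 23.7 and 22.8 CPM in non-cycling DOX cells (log2 change -0.38 ± 0.069, adjusted p = 0.00134). HERC6 had 16.6 and 15.9 CPM in cycling and 13.6 and 14.6 CPM in non-cycling DOX cells (0.33 ± 0.076, adjusted p = 0.00495). HERC5 had 36.1 and 31.7 CPM in cycling and 30.3 and 30.6 CPM in non-cycling DOX cells (0.28 ± 0.064, adjusted p = 0.00493). ISG15 had 696 and 663 CPM in cycling and 725 and 705 CPM in non-cycling DOX cells (0.05 ± 0.036, adjusted p = 0.256), a fitted change with the opposite sign to the CPM because the scaling factors of the sums differ. The protease and the conjugating enzyme thus lay on opposite sides of the split, in both DOX libraries and in every other setting run. The DOX cells between these groups were not tested. USP18 had 16.55 and 16.75 CPM there, between both groups, while HERC6, at 13.1 and 13.24 CPM, lay below both. HERC5 had 30.73 and 27.86 CPM, the latter below both groups, and UBE2L6 had 16.49 and 16.78 CPM, the former below both.

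In untreated cells the only member past the test was ISG15, with 123 and 122 CPM in the cells with most S and G2/M UMIs and 139 and 126 CPM in those with fewest (log2 change -0.18 ± 0.037, adjusted p = 0.0142), in a split where 8.58% of genes were lower. It did not pass without untreated replicate 1 (-0.10, adjusted p = 0.499) or without replicate 2 (-0.22, adjusted p = 0.0899). USP18 had 4.73 and 5.51 CPM in the untreated cells with most and 5.13 and 4.62 CPM in those with fewest. The difference between the DOX and the untreated split was itself tested, and 46.8% of genes passed in either direction. As the splits are of unlike width, it does not compare equal steps in cell cycle genes, and the part of the width in it was not tested. USP18 passed (0.83 ± 0.14, adjusted p = 0.00125) and did so in all other settings. ISG15 (0.23), UBE2L6 (-0.30) and HERC6 (0.42) passed as well, but each missed the threshold without untreated replicate 1 (adjusted p = 0.102, 0.126 and 0.0941), and UBE2L6 also without DOX replicate 2 (-0.18, adjusted p = 0.162) and UBE2L6 and HERC6 without untreated replicate 2 (0.183 and 0.087). Without DOX replicate 2, ISG15 passed in DOX (0.11, adjusted p = 0.00176), and so did HERC5 in the difference (0.30, adjusted p = 0.00204).

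Depth moved with the split in opposite ways. In DOX cycling cells had medians of 75315 and 88847 UMIs and non-cycling cells 83196 and 101869. In untreated libraries the cells with most S and G2/M UMIs had medians of 80607 and 92560 UMIs and those with fewest 67746 and 72715. Its part in the result was not tested. HERC6 did not pass with DESeq2 (adjusted p = 0.0942), nor HERC5 with scaling by total UMIs (0.15, adjusted p = 0.0612), which moved the median over all genes from -0.02 to -0.14 and the split of calls from 6354 up and 5690 down to 5083 up and 7078 down. In the difference between the conditions 1 member, USP18, was higher with scaling by total UMIs. With DESeq2 2 members were higher and 0 lower in that difference.

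Cells were then split in the same way and sizes by CDKN1A, the p21 inhibitor that p53 switches on and that marks arrest. Of 18968 genes 27.0% were higher in CDKN1A-high DOX cells. UBE2L6 was the member that differed most, with 23.0 and 24.1 CPM in CDKN1A-high DOX cells and 16.3 and 14.2 CPM in CDKN1A-low DOX cells (log2 change 0.60 ± 0.078, adjusted p = 3.48e-06). HERC5 followed, with 34.4 and 32.6 CPM in CDKN1A-high and 27.2 and 25.8 CPM in CDKN1A-low DOX cells (0.31 ± 0.061, adjusted p = 2.70e-04). ISG15 was at 746 and 777 CPM in CDKN1A-high and at 682 and 643 CPM in CDKN1A-low DOX cells (0.18 ± 0.052, adjusted p = 0.00786). Without DOX replicate 2 its log2 change was 0.12. In the DOX cells between these groups, not tested, ISG15 was lower than in both, at 622 and 627 CPM. UBE2L6 (18.3 and 15.3 CPM) and HERC5 (34.34 and 30.81 CPM) lay between both groups there.

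HERC6 and USP18 did not pass in that split. HERC6 had 13.5 and 14.5 CPM in CDKN1A-high and 14.6 and 14.6 CPM in CDKN1A-low DOX cells. USP18 had 14.9 and 17.1 CPM in CDKN1A-high and 19.8 and 16.2 CPM in CDKN1A-low DOX cells (-0.20 ± 0.096, adjusted p = 0.0923), and it passed as lower without DOX replicate 2 (-0.42, adjusted p = 5.14e-05). UBA7 was too rare to be tested with all libraries, at 8 and 8 UMIs in CDKN1A-high and 7 and 0 UMIs in CDKN1A-low DOX cells. Without DOX replicate 1 it entered the test and passed as higher on those 8 against 0 UMIs (adjusted p = 0.0308), and without DOX replicate 2 it did not pass (adjusted p = 0.846). In untreated cells 0 members passed with edgeR at an adjusted p under 0.05, and 1, HERC5, had an unadjusted p under 0.05 (0.14 ± 0.065). The difference between the conditions passed for UBE2L6 (0.67 ± 0.11, adjusted p = 1.36e-04) among 18.9% of genes with a positive difference, and kept passing in all other settings. UBE2L6 had 6.41 and 6.81 CPM in CDKN1A-high untreated cells and 6.70 and 6.79 CPM in CDKN1A-low untreated cells. The classes also differed in depth. In DOX the medians were 86626 and 104616 UMIs in CDKN1A-high and 63155 and 75036 in CDKN1A-low cells, and the part of this in the calls was not tested. Ties in CDKN1A were broken by total UMIs in every library. CDKN1A-low cells held means of only 0.071 and 0.0 thinned CDKN1A UMIs in the DOX libraries. In the untreated libraries these means were 0.0 and 0.0, so ties were many in both conditions. CDKN1A-high cells held means of 14.0 and 10.6 thinned CDKN1A UMIs in DOX and 1.56 and 1.75 in untreated libraries. This split too was thus far wider in DOX, and the difference between conditions does not compare equal steps in CDKN1A. The part of the width in that difference was not tested. Untreated medians were 87571 and 95758 UMIs in CDKN1A-high and 53836 and 62616 in CDKN1A-low cells. With ties broken by barcode instead, the CDKN1A-low DOX sums went from 29419978 and 27763571 to 30708236 and 31709628 UMIs. UBE2L6 kept its calls there.

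**Figure D4:**
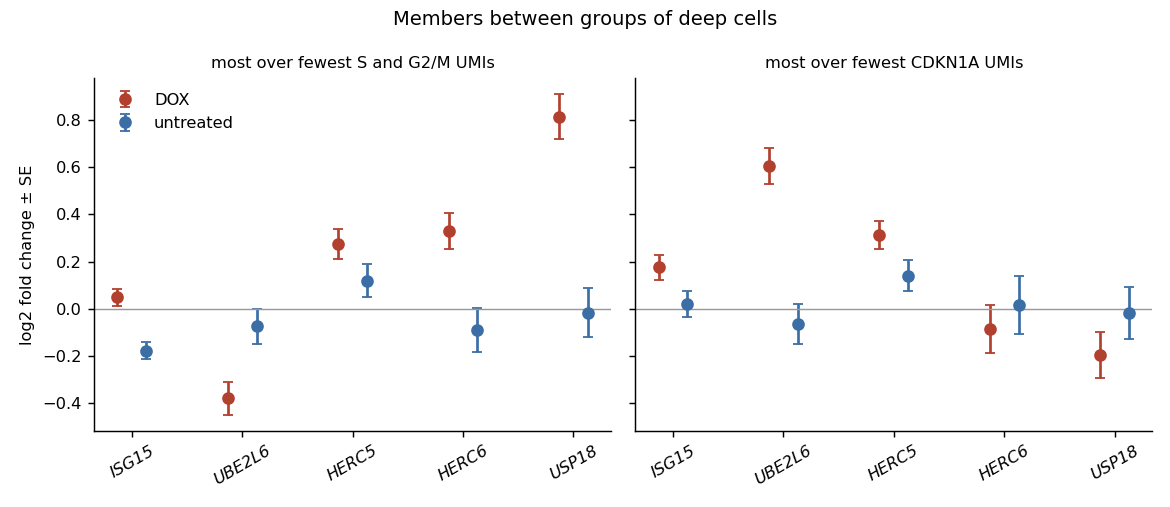
Log2 fold change with SE of 5 members (horizontal axis) between the deep cells with most and with fewest S and G2/M UMIs (left panel) and between CDKN1A-high and CDKN1A-low deep cells (right panel), in DOX (red) and untreated cells (blue). In DOX USP18 stands at 0.81 and UBE2L6 at -0.38 on the left, and UBE2L6 at 0.60 and USP18 at -0.20 on the right, while the untreated points lie between -0.18 and 0.14.

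The pairing of ISG15 with each enzyme was also looked at within these splits. With USP18 r was 0.468 and 0.471 in cycling DOX cells and 0.341 and 0.413 in non-cycling DOX cells. With UBE2L6 it was 0.301 and 0.246 in cycling DOX cells and 0.447 and 0.413 in non-cycling DOX cells. In both DOX libraries r with USP18 was thus higher in cycling cells and r with UBE2L6 higher in non-cycling cells, as a description over 435 and 360 cells of each kind. With HERC5 r was 0.298 and 0.308 in cycling and 0.377 and 0.327 in non-cycling DOX cells, and with HERC6 it was 0.252 and 0.267 in cycling and 0.015 and 0.234 in non-cycling DOX cells. By CDKN1A, r with UBE2L6 was 0.393 and 0.355 in CDKN1A-high and 0.312 and 0.264 in CDKN1A-low DOX cells, while r with USP18 was 0.348 and 0.425 in CDKN1A-high and 0.366 and 0.466 in CDKN1A-low DOX cells. With HERC5 it was 0.345 and 0.273 in CDKN1A-high and 0.292 and 0.330 in CDKN1A-low DOX cells, and with HERC6 0.051 and 0.216 in CDKN1A-high and 0.149 and 0.278 in CDKN1A-low DOX cells. In untreated cells r with USP18 and UBE2L6 was -0.01 to 0.10 in either group of the S and G2/M split.

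Most DOX barcodes were shallow. Under 2000 UMIs and with a mitochondrial share under 8% lay 4338 and 4243 DOX barcodes, against 140 and 71 untreated barcodes, but these numbers cannot be compared. The authors forced barcode calling to 8000 barcodes in the DOX libraries and not in the untreated ones, to keep DOX cells with few expressed genes. Shallow DOX barcodes had medians of 757 and 670 genes, against 8755 and 9178 in deep DOX cells. The study set apart senescent and proliferative cells by clustering and by markers of both states. The cluster that it linked to senescence had few genes per cell and the proliferative cluster had many. Its co-expression and burst results compared DOX with untreated cells inside the cluster with many genes. Whether shallow barcodes hold whole cells was not tested. The members were compared per UMI between shallow and deep barcodes of the same library. In DOX 4 of the 5 members tested were higher in shallow barcodes, in a comparison where 28.4% of 19206 genes were.

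ISG15 had 1663 and 1663 CPM in shallow and 686 and 690 CPM in deep DOX barcodes (log2 change 2.01 ± 0.052). HERC5 had 52.4 and 49.2 CPM in shallow and 32.3 and 30.2 CPM in deep DOX barcodes (1.44 ± 0.088, adjusted p = 5.05e-59). UBE2L6 had 24.5 and 29.7 CPM in shallow and 19.5 and 18.5 CPM in deep DOX barcodes (1.24 ± 0.11, adjusted p = 3.71e-27). HERC6 had 7.73 and 8.51 CPM in shallow and 14.4 and 14.6 CPM in deep DOX barcodes (-0.10 ± 0.18, adjusted p = 0.685). USP18 had 15.5 and 14.1 CPM in shallow and 16.8 and 16.5 CPM in deep DOX barcodes (0.57 ± 0.15, adjusted p = 2.37e-04). UBA7 had 0 and 1 UMI in all shallow DOX barcodes.

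The fitted changes exceed the ratios of CPM because the TMM scaling factors of shallow and deep sums differ. With scaling by total UMIs the median over all genes moved from 0.07 to -0.67 and the split from 5457 up and 4108 down to 2033 up and 9093 down, and HERC6 then passed as lower (-0.84) and USP18 no longer passed, with its sign turned (-0.17, adjusted p = 0.317). USP18 also missed the threshold with DESeq2 (adjusted p = 0.231) and without DOX replicate 1 (0.32, adjusted p = 0.43) or 2 (0.41, adjusted p = 0.19). Other small modifiers moved like ISG15, with 17 of 18 higher and 0 lower (median log2 change 1.29), whereas 0 of 4 other HERC ligases were higher and 3 were lower (median -0.93). Of 24 U-ISGF3 genes tested 15 were higher and 2 lower.

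At an equal depth of 1000 UMIs, ISG15 was found in 80.0% and 79.6% of shallow DOX barcodes, against 41.6% and 46.0% of deep DOX cells, with Fano factors of 1.17 and 1.26 in shallow and 1.79 and 1.35 in deep. In untreated libraries 16.9% and 19.6% of the 89 and 46 shallow barcodes that held 1000 UMIs had an ISG15 UMI, against 11.8% and 11.7% of deep cells. The difference between the conditions passed for ISG15 alone of the 5 members tested (1.89 ± 0.21), where 10.4% of genes passed upward. Of 18 other ubiquitin-like modifiers tested, 13 passed upward too (median 1.64). The untreated shallow sums are small, and the other members tested held 0 to 2 UMIs in each of them. Shallow DOX barcodes had median mitochondrial shares of 0.86% and 1.04%, against 5.23% and 5.51% in deep DOX cells, and the part of this in the result was not tested.

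**Figure D5:**
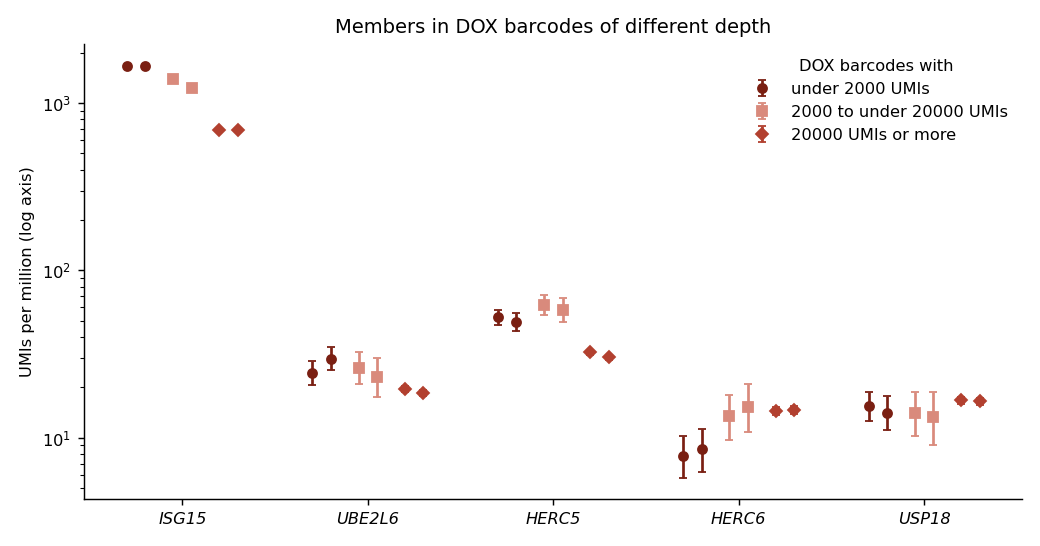
UMIs per 1000000 UMIs (CPM, vertical log axis) of 5 members in DOX barcodes with under 2000 UMIs (circles), 2000 to under 20000 UMIs (squares) and 20000 or more UMIs (diamonds), each with a mitochondrial share under 8%. Each class shows both DOX libraries with 95% Poisson intervals. ISG15 stands at 1663 CPM in both shallow sums and at 686 and 690 CPM in the deep ones, while HERC6 stands at 7.73 and 8.51 CPM in shallow and 14.4 and 14.6 CPM in deep sums.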

How the data were processed

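Single-cell 3′ gene expression was measured in 2 DOX and 2 untreated HCT-116 libraries. The values are raw UMI counts per gene and barcode, which the authors made with Cell Ranger (7.2.0 per the file headers, 7.0.0 in the submitters' processing notes, which also list hg19) and deposited without normalization. Barcode calling was forced to 8000 barcodes in each DOX library, not in the untreated ones. Whether intronic reads were counted is not given in the sources used here. Deep sums held 103833151 and 102333220 UMIs in DOX and 291488794 and 199164759 UMIs in untreated libraries. The 6 bulk samples were not used here.

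UMIs were summed per library and class of barcode and tested with edgeR 4.0.16 (R 4.3.3, TMM factors, filterByExpr, quasi-likelihood F test), with Benjamini-Hochberg adjustment over all genes tested and a threshold of 0.05. Shallow against deep barcodes and cells with most against fewest S and G2/M UMIs or CDKN1A UMIs (435 and 360 DOX, 1190 and 712 untreated cells in each) were compared with the library as a block. DESeq2 1.42.0 was an alternative. CPM is UMIs per 1000000 of the summed total, with exact Poisson intervals of 95%, which cover counting error only. Nothing states that replicates came from separate cultures, so p-values measure the spread between these samples, which may be technical. edgeR pools information on this spread over genes. With 2 libraries per group the smallest p-values rest mostly on the pooled spread, not on each gene's own. Correlations, thinning and Fano factors were computed in Python 3.11.15 with numpy 2.4.6. No doublet caller was run, and the 5% of barcodes with most UMIs were left out as an alternative. The edgeR fits were tested on simulated data.

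The members and the 14 gene lists were chosen with earlier results of these data known. Named were the members, from each list the 3 genes that had the lowest p after DOX and the 10 genes most like ISG15. A result on 1 gene that this rule names is not reported here. Other genes of these lists, and the genes most like the other members, were named after their values had been seen. Alternatives were another test, scaling, filter, cell limit, depth and split, the replicate number as a block, and each library left out.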

Additional observations from a re-analysis of the deposited data

Results flagged for a closer look

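For some members the effect of a split differed between DOX and untreated libraries by the test of that difference. In shallow against deep barcodes the median of that difference was 0.82 over all genes and 1.64 over 18 other ubiquitin-like modifiers. There the DOX effect minus the untreated effect was 1.89 on the log2 scale for ISG15. In cells with most against fewest S and G2/M UMIs, a split far wider in DOX than in untreated libraries, it was 0.83 for USP18, 0.42 for HERC6, 0.23 for ISG15 and -0.30 for UBE2L6. In CDKN1A-high against CDKN1A-low cells, a split also far wider in DOX, it was 0.67 for UBE2L6.

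Barcodes outside the main comparison also carried the members above the untreated level. Among deep barcodes with a mitochondrial share of 8% or more, of which there were 579 and 651 in DOX and 395 and 173 in untreated libraries, ISG15 had 464.7 and 540.7 CPM in DOX and 126.2 and 112.1 CPM in untreated libraries. HERC5 had 44.3 and 46.4 CPM in DOX and 8.58 and 12.2 CPM in untreated libraries. HERC6 had 20.2 and 19.6 CPM in DOX and 5.09 and 4.90 CPM in untreated libraries. UBE2L6 had 17.3 and 15.2 CPM in DOX and 6.64 and 5.54 CPM in untreated libraries, and USP18 had 13.4 and 13.8 CPM in DOX and 4.84 and 5.00 CPM in untreated libraries.

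Between the shallow and the deep class, from 2000 to under 20000 UMIs, lay 939 and 606 DOX barcodes and 327 and 82 untreated barcodes. ISG15 had 1386 and 1239 CPM there in DOX and 90.1 and 174.2 CPM in untreated libraries. HERC5 had 62.4 and 58.3 CPM there in DOX and 9.63 and 2.26 CPM in untreated libraries, the last on 1 UMI (95% Poisson interval 0.057 to 12.6 CPM).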

How the results depend on the processing

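Of all values recomputed under the alternatives, 647 were labelled the same, 19 no longer passed, 12 passed anew, 47 moved and 1 reversed. For a log2 change, the same means an unchanged call, even where a value that did not pass turned its sign. For a count it means a value within a set factor. For r and Fano factors it means a value within the SD of the 2 libraries of a group. UBA7 passed after DOX with a mitochondrial share under 5% (log2 change 1.09, adjusted p = 0.0482), with no mitochondrial limit (1.17, adjusted p = 0.00814) and with all deposited barcodes (1.11, adjusted p = 0.00945). With DESeq2, 5795 genes passed between shallow and deep DOX barcodes (9565 with edgeR), and the differences between conditions passed for 6011 genes by cycling (9179 with edgeR, and 0 members lower) and 5219 genes by CDKN1A (8367 with edgeR). With scaling by total UMIs, USP18 turned to -0.17 between shallow and deep DOX barcodes and 1 member was lower there, and 1 member was higher in the cycling difference, where the split of calls was 3839 up and 5785 down against 5475 up and 3704 down. With all deep cells split at the median of CDKN1A 1 member, USP18, was lower in DOX, and with no filter on low counts 1 member, HERC5, was higher in CDKN1A-high untreated cells. The causes were not tested.

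With each library left out in turn, the shallow comparison passed for 6139 to 9927 genes in DOX and its difference between conditions for 1382 to 2156 genes. In the cycling split 0 to 1 members were lower in untreated cells, and in its difference 1 to 4 members were higher and 0 to 1 lower. In the CDKN1A split 2 to 4 members were higher (4 without DOX replicate 1, UBA7 among them) and 0 to 1 lower in DOX, and in its difference 1 to 2 were higher and 0 to 1 lower.

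The median r over the 15 pairs of members was 0.082 (Pearson) and 0.083 (Spearman) on thinned counts in DOX replicate 1, 0.097 and 0.060 in DOX replicate 2, -0.008 and -0.008 in untreated replicate 1 and 0.010 and 0.004 in untreated replicate 2. On all UMIs of a cell the ISG15 Fano factor was 156.7 and 82.78 in DOX and 7.853 and 6.808 in untreated libraries, and on thinned counts it was 12.9 in DOX replicate 1 without its top cell, a setting chosen after seeing the data, as were the shallow limit of 1500 UMIs and ties in CDKN1A broken by barcode.

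Replicates of the groups share only a number. Same-numbered libraries had a correlation of deviations of 0.067 over genes, and with the replicate number as a block 12311 genes passed after DOX (6370 up, 5941 down), with 5 members higher as without it. A shallow limit of 1000 UMIs was not run, since no DOX barcode held fewer. UBA7, at 14 to 24 UMIs a library, is limited by depth.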

Other observations

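Type III interferon and IFNB1 transcripts were rare and lay mostly in single cells, unlike IFNE, which had 34 UMIs in 30 and 24 in 20 deep DOX cells and 31 UMIs in 31 and 24 in 19 deep untreated cells, with at most 3 in a cell. IFNL1, a type III interferon, had 127 UMIs in 6 deep cells of DOX replicate 1, 97 of them in 1 cell, and 3 UMIs in 2 cells of DOX replicate 2, against 3 UMIs in 1 cell of untreated replicate 1 and 0 in untreated replicate 2. IFNL2 had 84 UMIs in 3 cells and IFNL3 62 UMIs in 2 cells of DOX replicate 1. IFNB1, the type I interferon of most non-immune cells, had 16 UMIs in 2 cells of DOX replicate 1 and 0 in DOX replicate 2 and in the untreated libraries.

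The 8 cells of DOX replicate 1 with a UMI of IFNL1, IFNL2 or IFNL3 held 4 to 460 ISG15 UMIs after thinning to 20000, with a median of 15.5, against 10 in the other cells of that library. Their median of HERC5 was 5 UMIs, against 0 in the other cells. The 3 such cells of DOX replicate 2 had a median of 19 ISG15 UMIs, against 10 in the other cells. The cells were picked by their own counts in 2 libraries, so this is a description with no test.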
